A study of Homo sapiens with 8 samples.

Results

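The 6 genes described here encode the most abundant classes of human heat shock protein and chaperone. HSP90AA1 and HSP90AB1 encode the stress-inducible and the constitutive form of cytosolic HSP90, HSPA8 and HSPA1A the constitutive and the inducible form of cytosolic HSP70, HSPA5 the HSP70 of the endoplasmic reticulum (BiP), and HSPD1 the mitochondrial chaperonin HSP60. They were followed as bound RNAs in eCLIP, which crosslinks RNA to protein with ultraviolet light, immunoprecipitates the protein and sequences what comes with it. A peak belonged to a gene when it overlapped the gene's span in hg19, given to the nearest kb, on the gene's strand. By that rule 7 of the 7442 deposited peaks belonged to 2 of the 6 genes: 2 of 3215 TIA1 peaks, both in HSPD1, and 5 of 4227 RBFOX2 peaks, all in HSP90AA1. HSPA8, HSPA5, HSPA1A and HSP90AB1 had no peak called for either protein. The share of all genes with a peak was not computed, since no hg19 annotation was used. Thus 2 of 6 is not shown to be high or low.

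The libraries came from HEK293T, an immortalised line of human embryonic kidney origin that expresses SV40 large T antigen, crosslinked at 600 mJ, with no heat or other stress named in the labels. The groups were TIA1 clip (n = 2) and TIA1 input (n = 2), then RBFOX2 clip (n = 2) and RBFOX2 input (n = 2). Clip libraries were immunoprecipitated with an antibody to the HA tag, but a protocol shared by all libraries, those of RBFOX2 included, also mentions beads carrying TIA1. Which protein the RBFOX2 peaks belong to rests on names only, those of the samples and of the peak list. The labels name no tagged construct, and they give no antibody for input libraries. The replicates are called biological in one label and technical in another. Each protein has a single peak list that joins both replicates, so there is no value per library, no spread between replicates and no test of any difference; depth is unknown. Fold and −log10 p are the authors' values per peak, read as clip over input, and no listed peak has a log2 fold or a −log10 p under 3. A gene without a peak is one with none in the list, and is not shown to be unbound.

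Chaperones fold new proteins and refold damaged ones. Heat shock raises transcription of the inducible members through heat shock factor, and the constitutive members are among the most abundant mRNAs of growing cells. TIA1 binds U-rich RNA, at splice sites and in 3′ untranslated regions, and gathers with untranslated mRNA in stress granules. RBFOX2 binds the element GCAUG, mostly in introns around alternative exons, and also in 3′ untranslated regions.

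The sequences shown are all matches to the RBFOX2 element, written GCATG as DNA, in the last 1000 bases of the mRNA of the HSP90 paralogs, because one paralog carried RBFOX2 peaks and the other did not. They come from the annotated principal transcripts of GENCODE v29 (GRCh38), and not from the peaks, since no hg19 sequence was used here. Each is 30 bases of the transcript strand, with the element in capitals, and the name gives the distance in bases from the first base of the element to the 3′ end of the transcript.
HSP90AA1 at 994: acgacacatcacGCATGgaagaagtagact
HSP90AA1 at 867: aaagtctgtatgGCATGacaactactttaa
HSP90AA1 at 542: gttgacaattctGCATGtactagtcctcta
HSP90AA1 at 176: atggtcttcccaGCATGtactcagcaggtg
HSP90AB1 at 416: accgcatctatcGCATGatcaagctaggtc
HSP90AB1 at 305: aggatgcgtctcGCATGgaagaagtcgatt

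RBFOX2 peaks in HSP90AA1 formed a single tight group near the 3′ edge of the gene. All 5 lay on the minus strand of chromosome 14 between 102547577 and 102547959 (hg19), a stretch of 383 bases of which 236 were covered by peaks, within a span of 60000 bases. Since the gene is read on the minus strand, these peaks lay 576 to 958 bases from the 3′ edge of the span, and no peak of either list lay in the remainder of the gene. The span is rounded to the kb, so the distance to the annotated transcript end is not known to the base. Exon and untranslated region were not assigned, because the annotation used here is for GRCh38.

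In the direction of transcription, the RBFOX2 peaks of HSP90AA1 began with one at 102547891 to 102547959, whose log2 fold was 4.17 and whose −log10 p was 14.5. The next, at 102547778 to 102547831, was the weakest of the group, with 3.38 on the log2 fold scale (10.4-fold) and a −log10 p of 7.90. The highest fold came after it, at 102547685 to 102547704, a 20-base peak with a log2 fold of 5.06 (33.3-fold) and a −log10 p of 14.7. From there the fold declined towards the 3′ end while the −log10 p increased. The 24-base peak at 102547650 to 102547673 reached 4.84 in log2 fold and 15.7 in −log10 p. The last was 69 bases wide, at 102547577 to 102547645, and combined a log2 fold of 4.47 (22.1-fold) with the highest −log10 p of the group, 20.7. The last 3 peaks were separated by 4 and 11 bases, and gaps of 59 and 73 bases set apart the others.

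**Figure D1:**
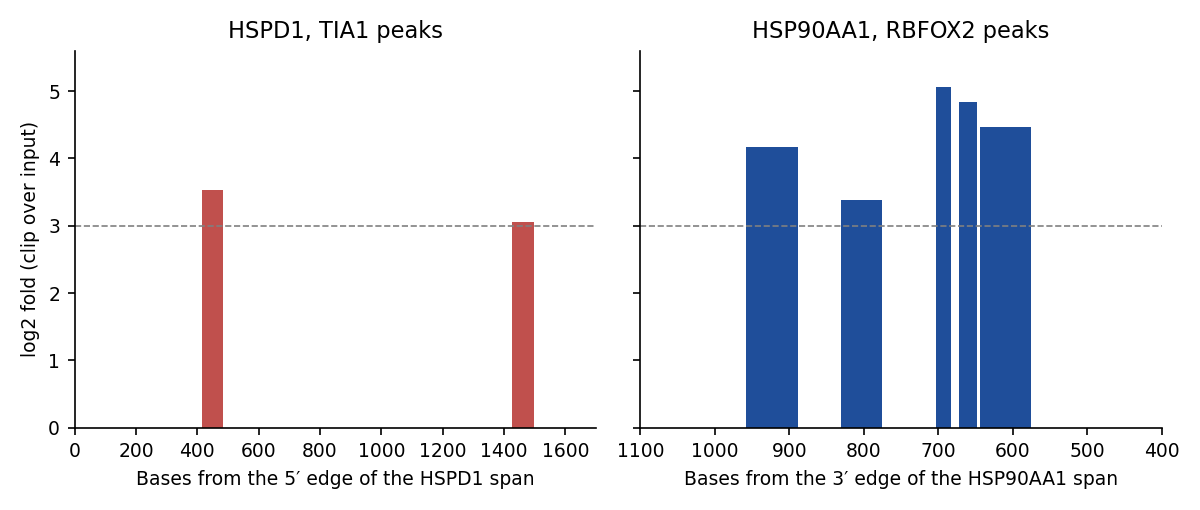
Log2 fold of clip over input (vertical axis) for each deposited peak, drawn to its width against distance in bases from the 5′ edge of the HSPD1 span (left, TIA1) and from the 3′ edge of the HSP90AA1 span (right, RBFOX2), with transcription running left to right. The dashed line marks the lower limit of the lists at 3; the 2 HSPD1 peaks reach 3.53 and 3.05, and 4 of the 5 HSP90AA1 peaks exceed 4.

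The median log2 fold of the HSP90AA1 peaks was 4.47, beside 3.48 over the whole RBFOX2 list. Of the 5 peaks, 4 had a log2 fold of 4 or more, as did 19.3% of the RBFOX2 list. The highest of them ranked 54th of 4227 by fold and 644th by −log10 p. The one with the highest −log10 p ranked 287th by fold and 343rd by −log10 p. The weakest peak went the other way, ranking 2485th by fold and 1730th by −log10 p, with 41.2% and 59.1% of the list below it. Thus 4 of the 5 peaks ranked higher by fold than by −log10 p. Peaks of one RNA share their source and are not independent observations of HSP90AA1.

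Tight groups of peaks were not particular to HSP90AA1 in the RBFOX2 list. Runs were defined as peaks at most 100 bases apart on a strand, a limit set after the spacing in HSP90AA1 was seen. Of RBFOX2 peaks, 17.5% lay in a run of at least 5 peaks, a minimum equal to the number in the HSP90AA1 run. There were 106 such runs among 2618, a total that counts single peaks as runs. The HSP90AA1 run ranked 11th among them by its highest log2 fold (5.06, beside a median of 4.17 over the runs) and 8th by its median log2 fold (4.47, beside 3.78). The nearest other RBFOX2 peak on its strand was 792.0 kb beyond the span. For the other genes described here that distance ranged from 85.3 kb (HSPA5) to 6035 kb (HSPD1).

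**Figure D2:**
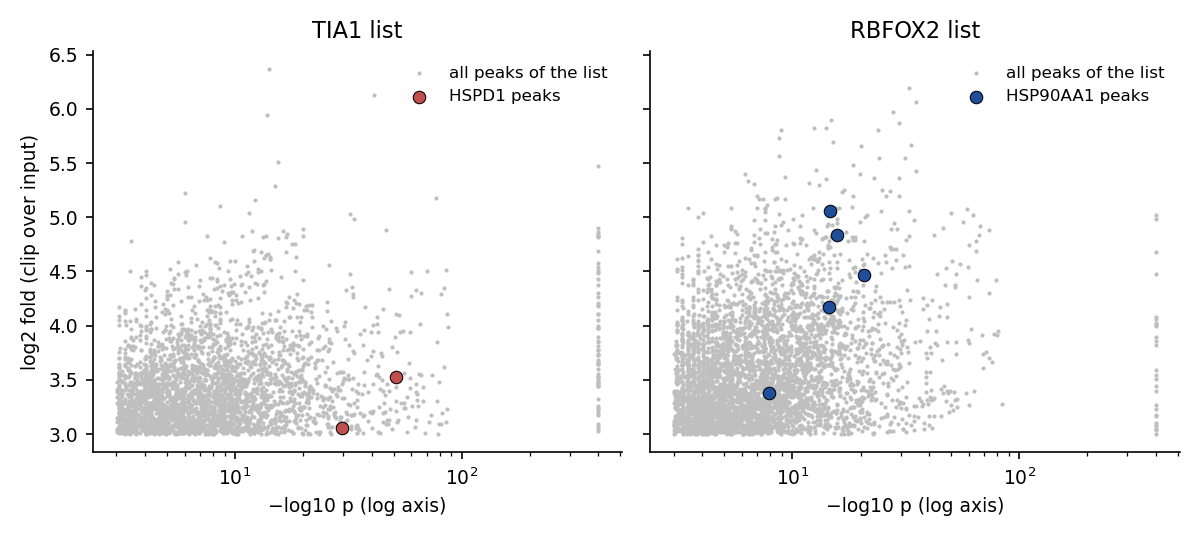
Log2 fold of clip over input against −log10 p (log axis) for every peak of the TIA1 list (left) and the RBFOX2 list (right), grey, with the peaks of HSPD1 and HSP90AA1 in colour. The HSPD1 peaks lie far to the right, at −log10 p of 51.0 and 29.8 and log2 folds of 3.53 and 3.05. Of the 5 HSP90AA1 peaks, 4 lie high, at −log10 p from 14.5 to 20.7. Each of these 4 has at least 84.4% of the RBFOX2 list below it by −log10 p.

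TIA1 peaks in HSPD1 lay near the other end of their gene, and both ranked higher in their list by −log10 p than by fold. Both were on the minus strand of chromosome 2, near the 5′ edge of the span. The first in the direction of transcription, at 198364516 to 198364586 (hg19), began 414 bases from that edge and had a log2 fold of 3.53 (11.5-fold) and a −log10 p of 51.0. The second, at 198363505 to 198363574, began 1426 bases from the edge and had a log2 fold of 3.05 (8.30-fold) and a −log10 p of 29.8. They were 71 and 70 bases wide, with 941 bases between them, and the remaining 12504 bases of the span towards the 3′ edge held no TIA1 peak.

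By −log10 p the HSPD1 peaks ranked 126th and 231st of 3215 in the TIA1 list. By fold they ranked 1049th and 2934th, with 67.4% and 8.74% of the list below them. Among the 126 TIA1 peaks with a −log10 p at least as high as that of the first HSPD1 peak, the median log2 fold was 3.61, and 55 had a lower fold than it. Among the 231 with a −log10 p at least as high as that of the second HSPD1 peak, the median log2 fold was 3.52, and 12 had a lower fold than that peak. Neither HSPD1 peak reached a log2 fold of 4 (0 of 2), a level that 9.21% of the TIA1 list reached. The median log2 fold of the HSPD1 peaks was 3.29, beside 3.36 over the whole list.

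No peak of the 6 genes was shared by TIA1 and RBFOX2. Of the HSPD1 peaks, 0 of 2 overlapped an RBFOX2 peak on the strand, beside 24.0% of the TIA1 list. Of the HSP90AA1 peaks, 0 of 5 overlapped a TIA1 peak, beside 21.7% of the RBFOX2 list. With so few peaks these counts show no difference from the lists. The nearest TIA1 peak on the strand of the HSP90AA1 peaks was at least 870.9 kb away, and the nearest RBFOX2 peak on the strand of the HSPD1 peaks at least 6035 kb away. On the opposite strand an RBFOX2 peak came within 386 bases of HSPD1's first TIA1 peak. That peak (chromosome 2, 198364973 to 198365077, plus strand) crossed the 5′ edge of the HSPD1 span by 77 bases and had a log2 fold of 3.34 and a −log10 p of 4.01. In RefSeq (GRCh38.p14) the neighbour of HSPD1 on that side is HSPE1, which encodes HSP10, the co-chaperonin of HSP60, and is read in the other direction. By the strand rule the peak does not belong to HSPD1, and it was not assigned to HSPE1.

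The constitutive HSP90 gene, HSP90AB1, had no peak in its span of 8000 bases on chromosome 6. The nearest RBFOX2 peak on its strand was 476.0 kb away and the nearest TIA1 peak 3224 kb away. Thus the HSP90 paralogs, whose cytosolic proteins are close relatives, differed in the lists: 5 RBFOX2 peaks were called for HSP90AA1 and none (0) for HSP90AB1. Without counts per library this difference could not be tested.

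None of the HSP70 genes had a peak. HSPA8, the constitutive HSP70 that also uncoats clathrin vesicles, lay 3199 kb from the nearest RBFOX2 peak and 3962 kb from the nearest TIA1 peak on its strand. HSPA5, which binds nascent chains in the endoplasmic reticulum and restrains the sensors of the unfolded protein response, had an RBFOX2 peak 85.3 kb away and a TIA1 peak 372.8 kb away. HSPA1A, the strongly heat-inducible HSP70, had a TIA1 peak 187.4 kb away and an RBFOX2 peak 893.6 kb away. HSPA1A has a near-identical neighbour, HSPA1B, and HSPA8 and the HSP90 genes have processed pseudogenes. How reads that map equally well to several copies were treated is not stated in the labels. The lack of called peaks is thus uncertain in these genes, as is the origin of the HSP90AA1 peaks. Copies of HSPA5 and HSPD1 were not looked for. Widening every span by 1 kb added no peak to any gene.

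**Figure D3:**
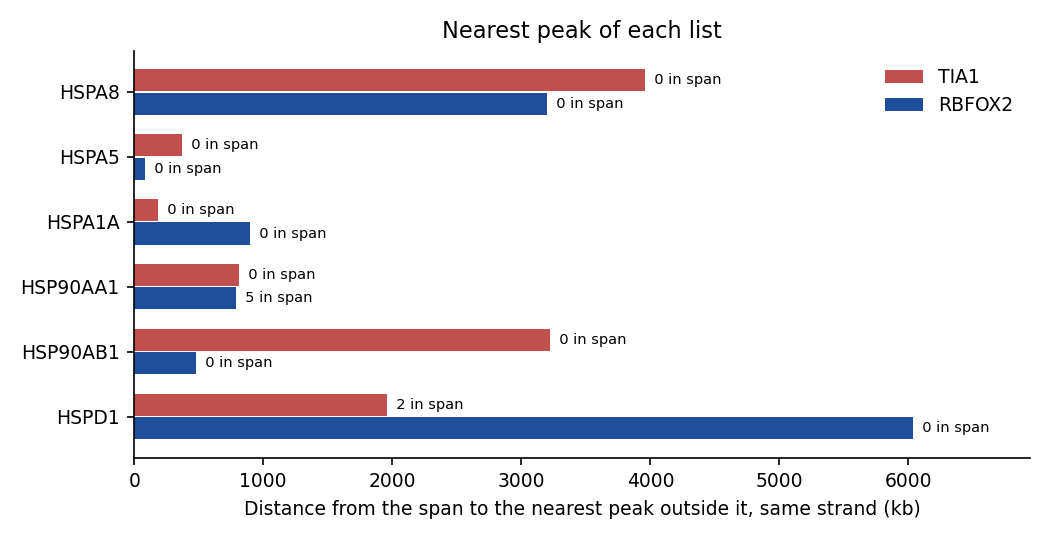
Distance in kb from each gene's span to the nearest peak outside it on the same strand, for TIA1 (red) and RBFOX2 (blue), with the number of peaks inside the span written beside each bar. The shortest distance is 85.3 kb, for RBFOX2 at HSPA5, and the longest 6035 kb, for RBFOX2 at HSPD1.

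The mRNA sequences were then set side by side for the elements these proteins are known to bind, on the transcript strand, in the last 1000 bases of 1 principal transcript per gene. HSP90AA1 had 4 matches to GCATG there, HSP90AB1 had 2, HSPA8, HSPA1A and HSPD1 had 1 each, and HSPA5 had 0. At least 1 match was present in 58.6% of 17769 protein-coding genes with a transcript of that length. Its presence in 5 of 6 genes is thus not unusual. Of all these genes, 1.59% had 4 or more and 6.68% had 3 or more. The HSP90AA1 match at 994 lies just inside the limit of 1000 bases, and the longest HSP90AA1 transcript had 3 matches there. In HSP90AA1, 3 of the 4 matches, at 867, 542 and 176 bases from the end, lay after the stop codon, in a 3′ untranslated region of 974 bases. None of the other 5 genes had a match after the stop codon (0 in each). Bases after the stop codon numbered 1739 in HSPA5, but only 465 in HSPD1, 285 in HSP90AB1, 264 in HSPA1A and 245 in HSPA8. The share over all genes was not computed for this region, so 3 against 0 is not shown to be particular to HSP90AA1.

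The remaining HSP90AA1 match, at 994, lay in the coding part, and its first base was 20 bases before the end of the stop codon. HSP90AB1 had its match at 305 in the same place, 20 bases before the end of its stop codon. The printed sequences were identical at 23 of 30 positions, a count that includes the element itself, on which both were aligned. This stretch lies in the coding part of both paralogs. Whether its identity exceeds that of their other coding sequence was not tested. Over the whole mRNA both paralogs had 5 matches. After the stop codon there were 3 in the 974 bases of HSP90AA1 and 0 in the 285 bases of HSP90AB1. The RBFOX2 peaks of HSP90AA1 lay 576 to 958 bases from the rounded 3′ edge of its span, but whether any match lies under a peak was not analysed here, as peaks and transcripts are in different builds.

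Runs of at least 5 T, the DNA form of the U runs that TIA1 prefers, were also counted in the last 1000 bases. HSPA1A had 5, HSP90AA1 4, HSP90AB1 and HSPD1 2 each, HSPA5 1 and HSPA8 0. The HSPA5 run starts 1000 bases from the end, at the limit. Counted after the stop codon instead, HSPA5 had 3 runs in its 1739 bases, and the other genes kept their counts. Of protein-coding genes, 77.6% had at least 1 and 32.3% had 4 or more. In HSPD1 the runs lay 253 and 164 bases from the 3′ end, in the 3′ untranslated region, whereas both TIA1 peaks lay near the 5′ edge of the gene. The sequence under the HSPD1 peaks was not examined, and whether they lie in exons or introns is not known here. HSPA1A, with most runs of the 6 genes in the last 1000 bases, had no TIA1 peak called. That lack is uncertain because of its near-identical neighbour HSPA1B. Over the whole mRNA HSP90AA1 had most, with 7 runs beside 6 in HSPA1A.

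**Figure D4:**
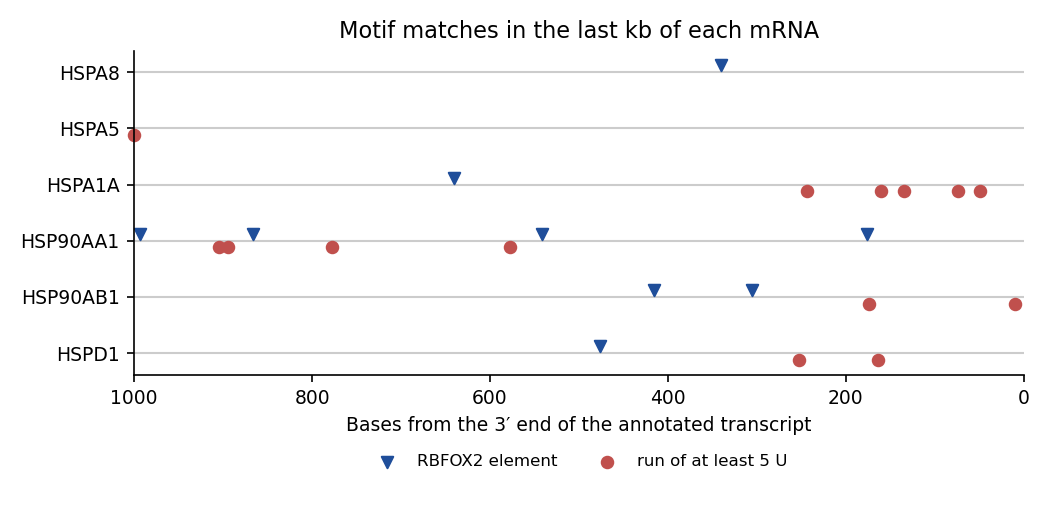
Matches to the RBFOX2 element GCATG (blue triangles) and runs of at least 5 U (red circles) by distance in bases from the 3′ end of the annotated principal transcript, for the last kb of each of the 6 mRNAs. HSP90AA1 carries 4 GCATG matches and 4 runs; the peaks themselves are not drawn, because they are in another genome build.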

How the data were processed

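The sources are 8 eCLIP libraries and 2 peak lists without headers. Per the labels, each list belongs to the clip and input libraries of its protein. The submitters' processing notes name UMI-tools 1.0.0, cutadapt 1.14, STAR 2.4.0i, SAMtools 1.6 and the hg19 build, without their roles; no peak caller is named in the labels. The deposited log2 fold and the deposited −log10 p were recognised as such from their ranges only, from 3 upwards and from 3 to 400.

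Peaks were assigned to genes, ranked within their list and compared by position (at least 1 shared base on the strand) with Python 3.11.15, pandas 2.3.3 and numpy 2.4.6. Counting was tested on simulated peaks. Coordinates are 1-based. All 6 genes and all their peaks are named. The genes, the list and the run limit were chosen with earlier results of these data known. A planned list of other chaperone genes needs hg19 positions and was not analysed here. Motifs were searched on the transcript strand of GENCODE v29 mRNAs, in the APPRIS principal transcript, the longest where several tie. Alternatives were stricter limits on fold or −log10 p, joining of peaks within 50 bases, other span and overlap rules, and another transcript.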

Additional observations from a re-analysis of the deposited data

Results flagged for a closer look

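An RBFOX2 peak on the strand opposite to HSPD1, at the 5′ edge of its span, drew attention because it lies outside the assignment to the 6 genes. Its log2 fold of 3.34 stood above 37.8% of the RBFOX2 list, and its −log10 p above 16.0%.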

How the results depend on the processing

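Of 27 values recomputed under the alternatives listed in advance, 22 stayed as reported or within 1.5 times of the reported count. These 22 include overlap counts of 0, which stricter limits on fold, −log10 p or overlap could not change. They also include the TIA1 count and median after joining peaks within 50 bases. Joining could not change these, as the HSPD1 peaks are 941 bases apart. With a log2 fold of at least 4 required, 0 TIA1 peaks and 0 genes with a TIA1 peak remained, against 4 of the 5 RBFOX2 peaks in HSP90AA1. On the opposite strand alone, 0 genes had a TIA1 peak and 1 had an RBFOX2 peak, HSPD1 in place of HSP90AA1. That count of 1 is among the 22, although the gene differs. Joining peaks within 50 bases made 3 RBFOX2 sites of the 5 peaks, by construction, with a median log2 fold of 4.17 in place of 4.47. With the longest transcript in place of the principal one, an alternative chosen after seeing the data, HSP90AA1 had 3 GCATG matches in its last 1000 bases in place of 4, and the other 5 genes kept their counts. Among the 6 genes all TIA1 peaks were in HSPD1 and all RBFOX2 peaks in HSP90AA1, so the median without the gene with most peaks could not be computed in either list. No paired analysis was possible because the lists give only values joined over replicates, which also means that replicates could not be left out in turn. Depth is unknown, so a gene without a peak cannot be read as unbound.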
